A study of Mus musculus with 16 samples.

Results

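The ribosomal protein genes of the mouse encode the proteins of the cytosolic ribosome. Their break ends were counted in AB22 cells, a line from a mouse malignant mesothelioma, a cancer of the membrane around the lungs and other organs. The genes were taken by symbol from the protein-coding genes of GENCODE M21 on build mm10. They are Rpl or Rps followed by digits and an optional a or x, with Rplp0, Rplp1, Rplp2 and Rpsa, and without symbols ending in l or k or marked as pseudogenes. This rule gave 76 of 21938 protein-coding genes, 46 of the large and 30 of the small subunit. The rule uses names and no measured value.

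Break ends were mapped by BLISS, which ligates an adapter to free DNA ends inside fixed cells and then reads the sequence beside it. Both lines were made with pTRIPZ lentivirus, selected with puromycin and given doxycycline, which switches on the hairpin. The shHMGB1 line carries a hairpin against HMGB1, an abundant chromatin protein that bends DNA, and the shCTRL line a control hairpin. Each line was held in G1 and left at 0 Gy or irradiated from a caesium source with 3, 5 or 10 Gy. The 8 groups have 2 libraries each. Each line is 1 transduced, selected population, so a difference between hairpins and one between populations cannot be told apart. The labels call the libraries biological replicates without saying more, so each p-value reflects only how far these samples spread, which may be technical. A break end does not measure a transcript, so these data hold no check of the knockdown. The Hmgb1 gene itself had a log2 difference of 0.16 ± 0.20 in break ends (shHMGB1 minus shCTRL, SE; adjusted p = 0.847, edgeR).

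Ribosomal proteins are made in equal amounts by genes that are among the most transcribed of any growing cell. The genes are short, and their messenger RNAs begin with a run of pyrimidines, the 5′ terminal oligopyrimidine tract, through which growth signals control their translation. Many of them also carry genes for small nucleolar RNAs (snoRNAs) in their introns. A snoRNA is cut out of the spliced intron and guides the chemical modification of ribosomal RNA, 2′-O-methylation by box C/D snoRNAs and pseudouridylation by box H/ACA snoRNAs.

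The 16 libraries held 11380784 break ends on the main chromosomes, from 131430 in shCTRL 3 Gy replicate 2 to 1010888. Levels are given as CPM, the ends in a gene per 1000000 ends of its library on the main chromosomes, and densities as CPM per kb. The 76 genes held 83352 ends between their starts and ends, which came to 0.688 ± 0.200% of all ends in the 8 shHMGB1 libraries, against 0.916 ± 0.344% in the 8 shCTRL libraries (mean and SD). Of these, 2544 lay in exons and 80681 in introns. All 76 genes had ends, and Rpl36a had none in an exon. The files keep no strand, so for the 28 members that overlap another gene the ends of both cannot be told apart. Markers of the mesothelium held 0.893 ± 0.347 CPM per kb in exons and those of blood cells 0.688 ± 0.182 (SD, n = 16), with 1 blood marker, Hba-a1, at 0 ends. Neither list identifies the cells, since ends do not measure transcripts.

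Nearly all intron ends of the ribosomal protein genes lay in snoRNA genes. Of the 76 genes, 29 hold 57 annotated snoRNA genes and 47 hold none. These snoRNA genes, each with 10 bases on either side, make up 3.21% of the members' intron length and held 94.3% of the intron ends. Across all 1558 annotated snoRNA genes, the 57 inside members took up 3.18% of the length and 24.8% of the 306983 ends. Ends per snoRNA gene ran from 3 to 11286 with a median of 454, and 5 genes held 53.7% of the members' snoRNA ends. The sequences of 6 of the snoRNA genes with the most ends are shown because many of their ends share a position, and that of Gm24888 in Rpl27a because a result between the lines turns on its host. They are given 5′ to 3′ on the gene's strand, from GENCODE M21, in lower case. Capitals mark the bases from the position with the most ends toward higher coordinates, 10 of them except in Snord68, where that position lies before the annotated gene and 5 remain.
Snord83b in Rpl3, chr15:80078498-80078591, minus strand: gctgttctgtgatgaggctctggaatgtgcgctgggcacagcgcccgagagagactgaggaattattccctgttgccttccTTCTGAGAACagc
Gm23969 in Rpl7a, chr2:26911261-26911334, plus strand: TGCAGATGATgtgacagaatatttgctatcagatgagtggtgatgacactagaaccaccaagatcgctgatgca
Snord35a in Rpl13a, chr7:45126346-45126435, minus strand: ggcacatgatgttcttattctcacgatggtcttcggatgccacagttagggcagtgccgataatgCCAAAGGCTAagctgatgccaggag
Snord21 in Rpl5, chr5:107904555-107904648, plus strand: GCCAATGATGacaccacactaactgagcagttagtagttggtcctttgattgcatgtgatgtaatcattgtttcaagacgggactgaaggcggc
Snord32a in Rpl13a, chr7:45127382-45127464, minus strand: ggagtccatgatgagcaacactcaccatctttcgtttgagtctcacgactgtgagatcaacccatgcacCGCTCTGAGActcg
Snord68 in Rpl13, chr8:123103038-123103123, plus strand: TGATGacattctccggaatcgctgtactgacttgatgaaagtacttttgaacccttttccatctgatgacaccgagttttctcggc
Gm24888 in Rpl27a, chr7:109521280-109521409, plus strand: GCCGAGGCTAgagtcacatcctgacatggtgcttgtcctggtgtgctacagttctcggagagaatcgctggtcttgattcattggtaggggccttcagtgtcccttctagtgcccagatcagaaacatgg

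In Snord83b, which lies in the gene of Rpl3, a protein at the peptidyl transferase centre, 9140 of 11286 ends (81.0%) shared 1 position, the same one in all 16 libraries. Gm23969 in Rpl7a had 32.2% of its 9131 ends at 1 position, also the same in all 16. Snord21 in Rpl5, whose protein binds the 5S ribosomal RNA, was more spread, with 13.7% of 5805 ends at its most used position and that position shared by 8 libraries. Gm24888 in Rpl27a was the most even of those shown, with 131 of 1783 ends (7.35%) at its most used position. The most used position lay near the lower coordinate of the gene on either strand. It fell in the 25 bases at the low edge in 25 of 29 plus-strand genes and in 27 of 28 minus-strand genes. On the plus strand that edge is the 5′ end of the snoRNA, and on the minus strand it is the 3′ end. Of all ends in these genes, the 25 bases at the low edge held 74.3% on the plus strand and 96.9% on the minus strand, while the 25 at the high edge held 2.23% and 0.149%. In the sequences above, the capitals therefore sit at the left in the plus-strand genes and at the right in the minus-strand genes. The sources used here do not say whether a listed position is the break end itself or, for some reads, the lowest mapped base, so for such reads the break end may lie elsewhere. Positions, capitals and pile-ups given here are those of the listed positions, and which of the readings holds was not tested.

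**Figure D1:**
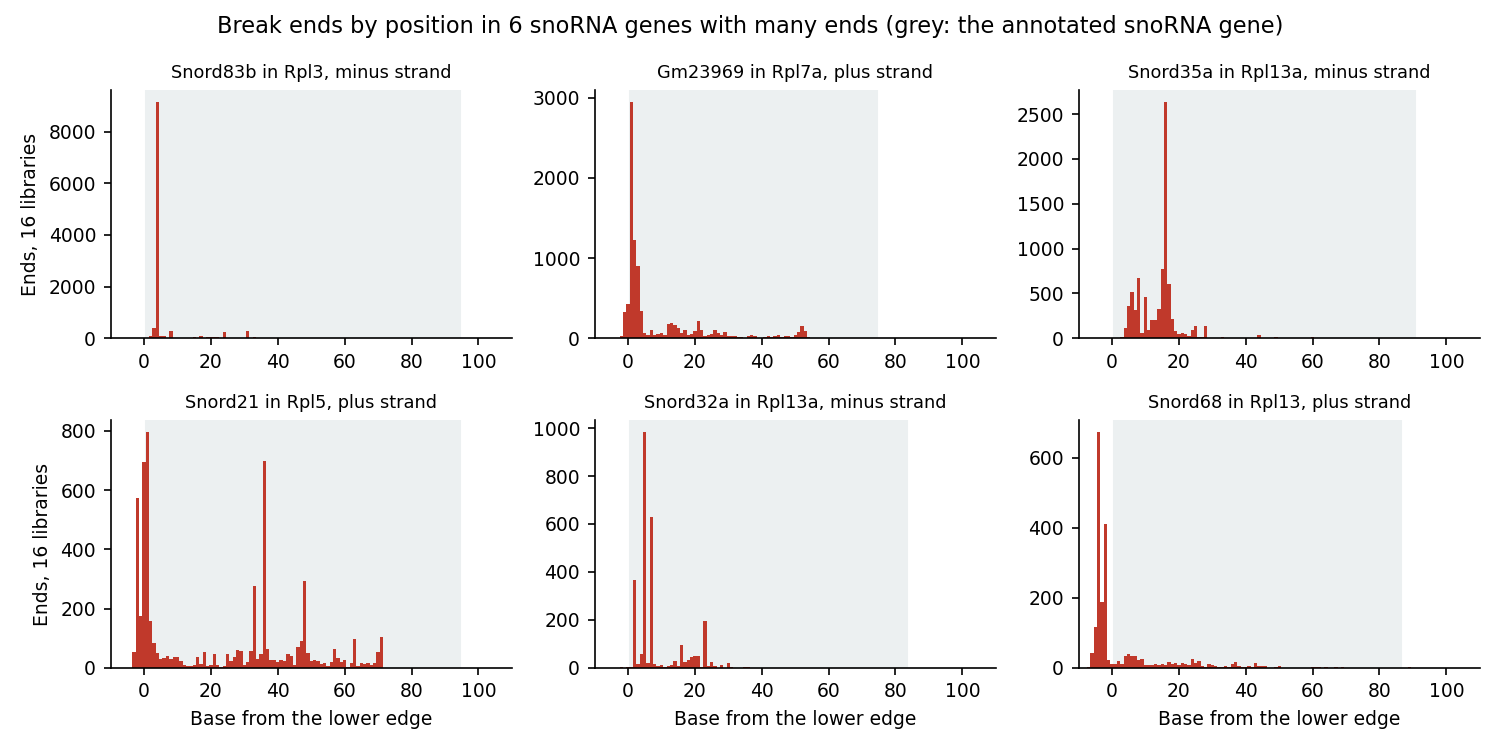
Break ends of all 16 libraries together at each base of 6 of the snoRNA genes with the most ends inside ribosomal protein genes, counted from the lower coordinate of the annotated gene (grey). In each panel the tallest bar stands at or near the lower edge, and in Snord83b a single base holds 9140 of 11286 ends.

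Both kinds of snoRNA gene carried ends. Genes with a Snord symbol, which names the box C/D kind, were 20 of the 57 and held 49815 ends. Those with a Snora symbol, the box H/ACA kind, were 12 and held 3987. Another 24 have predicted-gene symbols and held 22291 ends. Letters like box C (TGATGA, read on the gene's strand only) stood in 23 of the 57 sequences, letters like box D (CTGA) stood in the last 15 bases of 33, and 21 had both. By host, Rpl13a led with 12679 ends in 4 snoRNA genes. Rpl3 followed with 11294, Rpl7a with 9503, Rpl5 with 5862, Rpl4 with 3386, Rps12 with 2999 and Rpl23a with 2709. Many snoRNA genes have near-identical copies, and how the authors placed reads that match several copies is not given in the sources used here, so the split between copies is uncertain. Clusters of at least 1000 ends in any library, widened by 1 kb on each side and merged, gave 32 regions of the genome, and 1 of these overlaps a member, at Snord83b.

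Outside the snoRNA genes, ribosomal protein genes carried ends in introns about as densely as in exons. Exon density of the list was 2.39 ± 0.570 CPM per kb and intron density without snoRNA genes 1.96 ± 0.402 (SD, n = 16 libraries). The exon over intron ratio was 1.22 ± 0.155. In the 20436 other protein-coding genes with introns, pooled, the same densities were 2.01 and 0.400, a ratio of 5.05. Exon density of single genes among them ran up to 100142, so the pooled values need not be those of a typical gene. By gene, the median member had 1.73 in exons and 1.80 in introns without snoRNA genes, against 0.367 and 0.280 in the median other gene. Exons were the denser of the pair in 35 members and introns in 41, against 13647 and 6339 of the other genes. Members that host snoRNA genes had 2.96 ± 0.685 in introns without those genes, and members that host none had 1.45 ± 0.296. The value of the hosts still includes the ends in Snord43, a small RNA gene in Rpl3 described below.

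Some of the intron ends left were still in small RNA genes. Snord43 in Rpl3, which the annotation lists as a microRNA gene and which the rule for snoRNA genes therefore kept, held 308 of the 570 intron ends of Rpl3. With such genes left out, the intron density of the list was 1.83 ± 0.379 (SD, n = 16), and with at most 3 ends counted per position and library it was 1.90 ± 0.373. Single positions with at least 10 ends over all libraries numbered 31 and held 13.4% of the 4567 intron ends outside snoRNA genes. One of the exon values also came from a snoRNA gene. Rpl32 had the highest exon density, 18.6 ± 10.5, but 148 of its 180 exon ends lay within Snora7a, which an exon of 1 Rpl32 transcript covers. Without it Rpl32 had 3.98 ± 3.33, and the exon density of the list was 2.24 ± 0.521.

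Among the other members with dense exons, Rpl8, a protein next to the peptidyl transferase centre, had 11.3 ± 4.60 CPM per kb in exons (SD, n = 16). Its exon density ran from 4.64 to 14.1 with a median of 11.4 in shHMGB1 libraries, against 5.47 to 21.9 with a median of 11.3 in shCTRL libraries. The groups overlapped over most of their range. Rpl41, the shortest ribosomal protein, had 9.98 ± 9.94 in exons and was at 0 exon ends in 2 shHMGB1 libraries and 1 shCTRL library. Rpl4, a protein of the exit tunnel, had 6.94 ± 3.45, Rpl13a 6.47 ± 3.75, Rplp1 of the ribosomal stalk 6.22 ± 5.78, Rpl12 at the base of the stalk 6.02 ± 3.50, and Rpsa of the small subunit 5.31 ± 2.89. The SD of Rpl41 and Rplp1 was nearly as large as the mean, and their exons hold 66 and 36 ends in all 16 libraries.

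In introns without snoRNA genes, Rpl7a led with 13.8 ± 5.30 CPM per kb and Rpl10a, of the mobile L1 stalk, had 12.8 ± 3.93 (SD, n = 16). Rpl10a hosts no snoRNA gene, and its 247 intron ends lay at 169 positions with at most 9 at any of them. The 209 of Rpl7a lay at 55 positions, and 27.3% of them shared 1 position. Rpl12 had 9.06 ± 5.64, Rps18 5.58 ± 2.38, Rpl37 4.73 ± 4.77, Rpl41 4.67 ± 5.41, Rps20 4.48 ± 5.32 and Rps21 4.41 ± 4.76. At the low end, among members with at least 500 exon bases, Rpl24 had 1 exon end, and Rpl19 and Rps26 had 2 each over all libraries, 0.109, 0.185 and 0.234 CPM per kb. With 1 or 2 ends each, differences among these genes were not detectable at this depth.

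**Figure D2:**
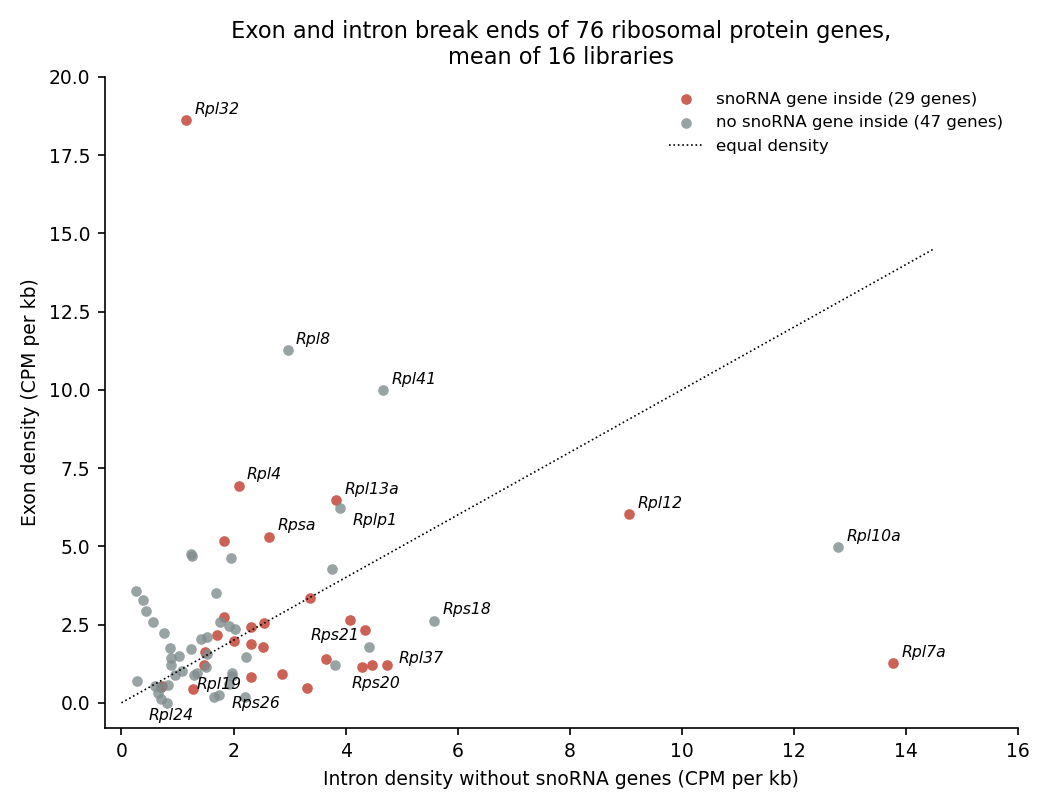
Each point is 1 of the 76 ribosomal protein genes, with its density of break ends in introns without snoRNA genes on the x axis and in exons on the y axis, both in CPM per kb as means of 16 libraries. Red genes hold a snoRNA gene and the dotted line marks equal density, with 35 genes above it and 41 below. Rpl32 stands highest through Snora7a, and Rpl7a and Rpl10a stand farthest right.

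Ends were denser inside the genes than before their start or after their end, counted with snoRNA genes left out and at most 3 ends per position and library. In the 500 bases after the annotated start, members had 2.98 ± 1.01 CPM per kb, against 0.612 ± 0.224 in the 500 bases before it (SD, n = 16). The side after the start was the denser in 16 of 16 libraries. In other protein-coding genes the densities were 1.29 after and 0.613 before the start, so members and other genes had nearly the same level upstream. Before the gene end members had 2.59 ± 0.607, against 1.10 ± 0.457 after it, and the far side was the denser in 0 of 16 libraries. Other genes had 0.895 before and 0.491 after their end. Within exons of the members, 5′ untranslated parts had 2.65 ± 0.862, coding parts 2.93 ± 0.652 and 3′ untranslated parts 1.28 ± 0.529. The same parts of other genes had 0.865, 3.55 and 0.575. These values pool all genes and all ends, and in other genes the exon density had a median of 0.367 by gene.

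**Figure D3:**
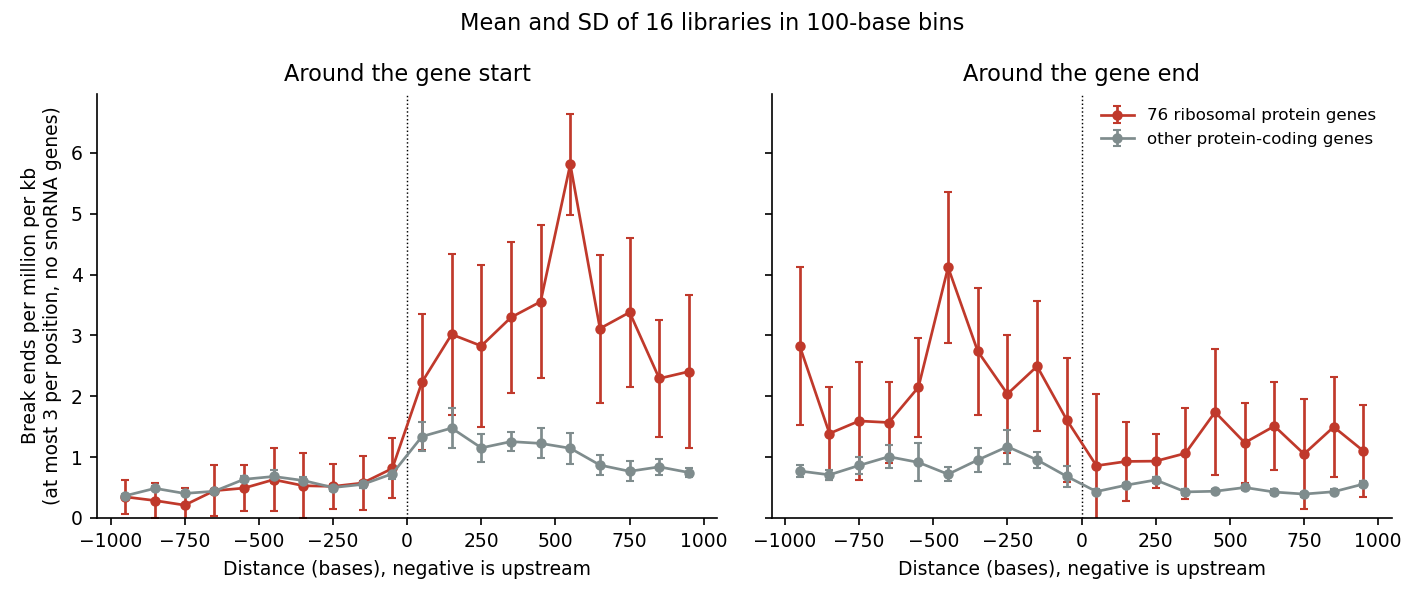
Density of break ends (CPM per kb, at most 3 per position and library, snoRNA genes left out) in 100-base bins around gene starts and gene ends, as mean and SD of 16 libraries. The 76 ribosomal protein genes (red) lie at the level of other protein-coding genes (grey) before the start and above them after it.

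Start sequences of 56 of the 76 members were found by symbol in RefSeq on GRCm38.p6, with 66 promoters. The letters CTTTC, a short pyrimidine run of the kind that opens these messenger RNAs, stood on the gene's strand between 10 bases before and 14 bases after the start in 21.2% of them, against 3.10% of all 32851 promoters. The longer CTTTCC, which contains it, stood in 13.6% against 1.04%. Over the whole 300 bases and both strands, CTTTC stood in 81.8% against 57.3%. Of the 28 members named by the rule for this report, 21 had a start in the table, with 25 starts, and 6 of these had CTTTC in that window. They are shown because the ends become denser from there, with CTTTC in capitals and 10 bases before the start.
Rpl12, chr2:32961702-32961726, plus strand: agcaggatccgtcttttcggCTTTC
Rpl13a, chr7:45128731-45128755, minus strand: cctgcgacaagacctcctcCTTTCc
Rpl27a, chr7:109519185-109519209, plus strand: cgtgagctcctcccttttccCTTTC
Rpl38, chr11:114668570-114668594, plus strand: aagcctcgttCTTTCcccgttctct
Rpl7a, chr2:26910797-26910821, plus strand: ctcttCTTTCtttctccagcagccg
Rps26, chr10:128626492-128626516, minus strand: gcaagccgccggatcctCTTTCgag

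With at most 3 ends per position and library, the 500 bases after these starts held 68 ends in Rpl12, against 8 in the 500 before. Rpl13a had 58 against 13, Rpl27a 51 against 2, Rpl38 31 against 5 and Rps26 8 against 2. Rpl7a had 1623 against 11, and its count after the start includes a snoRNA gene. At 23 of the 25 starts there were more ends after than before, so the side was the same with and without the letters in nearly all of them.

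Exons of ribosomal protein genes share sequence with their many processed pseudogenes, which bears on where a short read can be placed. A median of 45.9% of the 31-base runs in a member's transcripts (range 1.95% to 99.0%) also occur in transcripts of other genes. These are other genes of any kind and not only pseudogenes. Rpl35, at 99.0%, shared 34.0% of its runs with pseudogenes, while in Rpl36 both values were 94.1%. Exon bases covered by a run shared with any other gene held 2.75 ± 0.657 CPM per kb. The other exon bases held 2.06 ± 0.571 (SD, n = 16). In Rpl32, 22 of 180 exon ends lay in bases not shared, while 148 lay within Snora7a. The shared value thus includes most of the ends in that snoRNA gene. The 33 members with over 50% of their 31-base runs shared had a median exon density of 1.47, and the 43 others 2.11. The 300 annotated genes with a ribosomal protein symbol and the mark -ps held 1067 ends, 0.527 ± 0.134 CPM per kb. Only annotated transcripts were compared, since no genome sequence was used here.

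Other genes of the ribosome and of its assembly were set beside the members by exon density. The 4 cytosolic ribosomal protein genes whose symbols fall outside the rule had 4.01 ± 1.73 CPM per kb (SD, n = 16), among them Rps3a1 at 7.37, Rack1 at 5.69 and Fau at 2.08. Another 15 genes whose messenger RNAs begin with a pyrimidine tract, such as the elongation factor gene Eef1a1, had 3.48 ± 1.31. The 14 genes of the snoRNA-protein core and of ribosome assembly, such as fibrillarin (Fbl), had 3.27 ± 0.849. The 78 mitochondrial ribosomal protein genes had 0.671 ± 0.184, and 7 paralogs such as Rpl3l had 0.557 ± 0.345. These values pool the genes of each list. By gene, the median was 3.89 outside the rule, 2.24 with a pyrimidine tract and 1.73 in the core and assembly list. It was 0.604 in the mitochondrial list, 0.466 in the paralogs and 1.73 in the 76 members. Across the 16 libraries the 76 members ran from 1.23 to 3.57 and the mitochondrial list from 0.398 to 1.23.

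The first comparison of the design asks how the shHMGB1 line differs from the shCTRL line. Of the 76 members, 46 had enough ends in the whole gene to be tested and 1 fell in shHMGB1, Rpl27a of the large subunit (chr7:109519147-109522367, plus strand). Over all 12848 protein-coding and long noncoding genes tested in the same way, 0.218% were called. By library, Rpl27a had 168 and 191 CPM at 0 Gy, 175 and 82.6 at 3 Gy, 149 and 139 at 5 Gy, and 141 and 144 at 10 Gy in shHMGB1. It had 200.0 and 258 at 0 Gy, 211 and 449 at 3 Gy, 227 and 259 at 5 Gy, and 150.3 and 206 at 10 Gy in shCTRL. The ranges overlapped, and the lowest shHMGB1 and the highest shCTRL library were both replicate 2 at 3 Gy. The means were 149 ± 32.4 in shHMGB1 and 245 ± 89.4 in shCTRL (mean ± SD of 8 libraries each), a log2 difference of −0.60 ± 0.15 (SE, adjusted p = 0.0491, edgeR quasi-likelihood test). Of its 2008 ends, 1914 lay in its 2 snoRNA genes, which had 141 ± 33.6 CPM in shHMGB1 and 235 ± 84.6 in shCTRL. In its introns without snoRNA genes, with 78 ends, the log2 difference was 0.04 ± 0.47 (adjusted p = 0.990).

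This test counted the ends between the start and the end of a gene. Without adjustment, 16 of the 46 had p under 0.05, all lower in shHMGB1, against 9.69% of all genes tested, 4.74% on the lower side. The median log2 difference was −0.33 over the tested members and 0.03 over all genes tested, and 38 of the 46 were below 0, against 46.0% of all genes. Of the 46 tested members 28 host snoRNA genes, and the log2 difference was below 0 in 26 of these 28 and in 12 of the other 18. The call for Rpl27a was lost, and others were gained, under several settings given in the closing section, and it ended when 1 library was left out in 14 of 16 cases (adjusted p from 0.0635 to 0.269).

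The other members named by the smallest p did not pass. Rpsa had 105 ± 32.7 CPM in shHMGB1 and 175 ± 55.3 in shCTRL (log2 −0.63 ± 0.16, adjusted p = 0.0601, edgeR). Rpl7a had 750.2 ± 216 in shHMGB1 and 1193 ± 529 in shCTRL (−0.57 ± 0.16, adjusted p = 0.128, edgeR), and its snoRNA gene Gm23969 had 703 ± 201 and 1126 ± 508. Rps3, at the channel through which the messenger enters, had 208 ± 74.7 and 303 ± 97.4 (−0.45 ± 0.15, adjusted p = 0.262, edgeR). All 3 host snoRNA genes. In the other direction the smallest p were those of Rps15a (0.74 ± 0.40), Rpl38 (0.74 ± 0.49), Rpl31 (0.50 ± 0.45) and Rpl34 (0.17 ± 0.43), with adjusted p from 0.561 to 0.937 (edgeR). None of these 4 hosts a snoRNA gene, and they had 108 to 152 ends. With 1 library left out, Rps15a ran from 0.51 to 2.09 and Rpl31 from 0.32 to 1.84, both highest without shCTRL 3 Gy replicate 1. The range of Rpl38 was 0.31 to 2.19, with its top when shCTRL 5 Gy replicate 2 was left out, and that of Rpl34 −0.44 to 0.68.

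**Figure D4:**
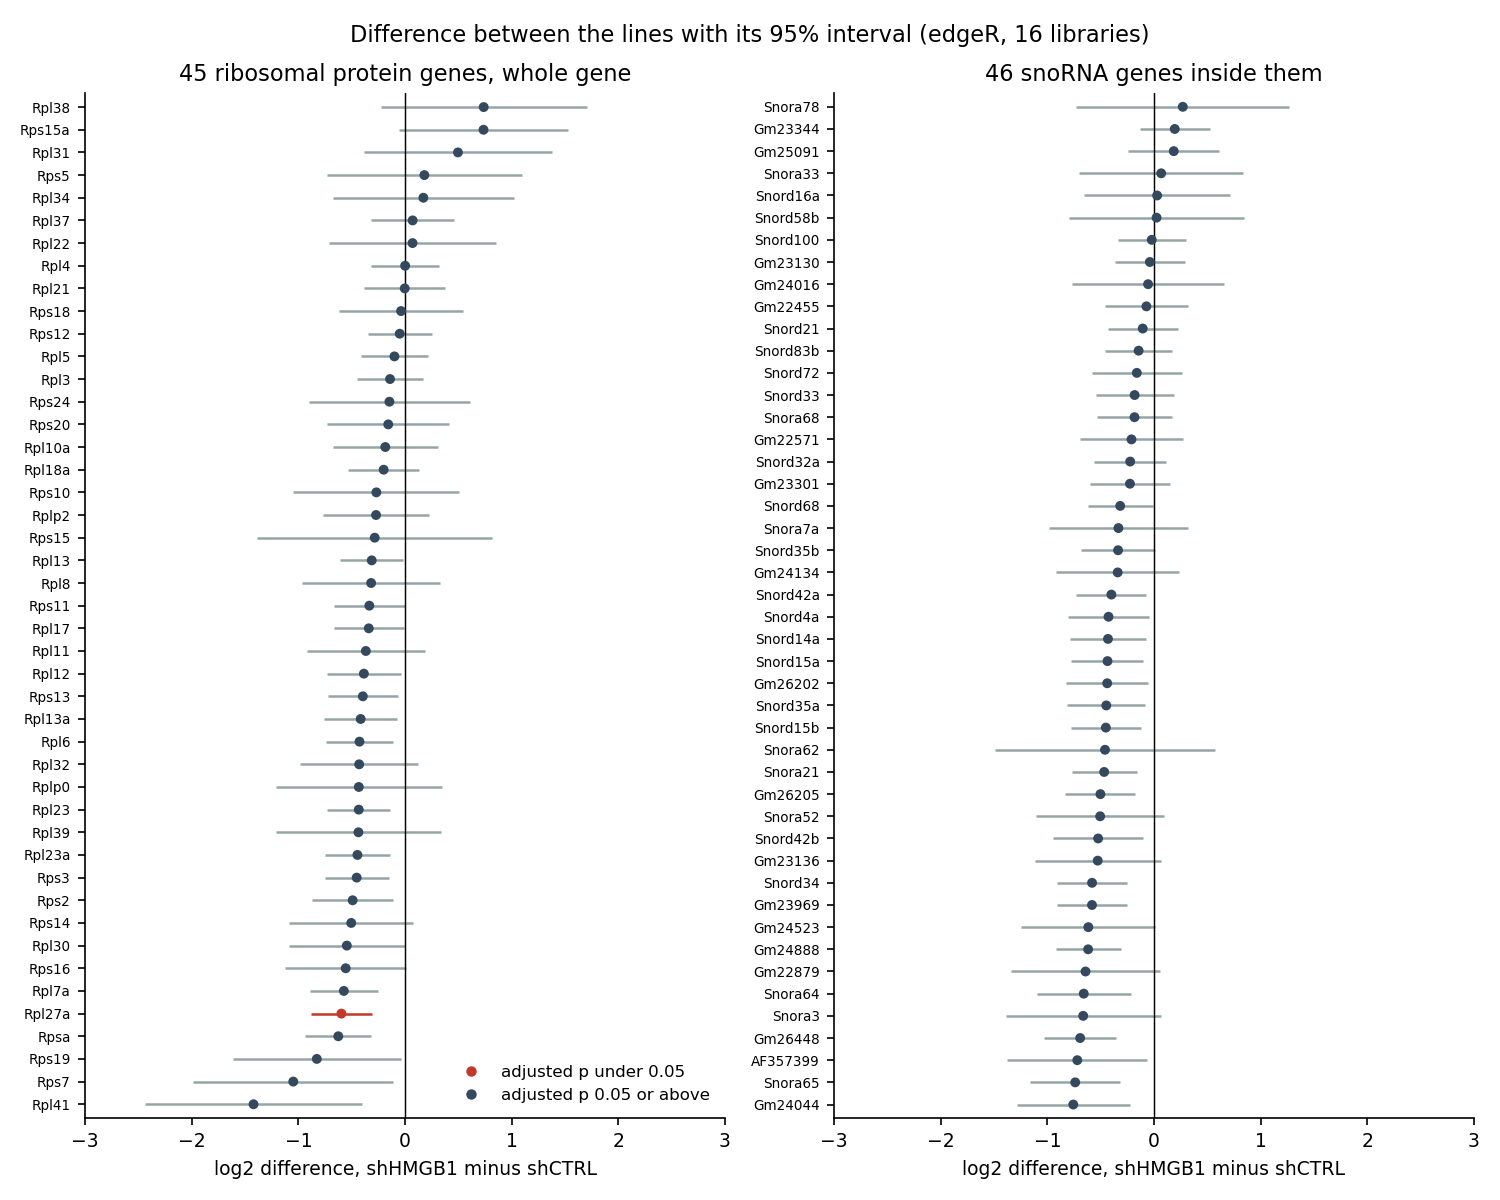
Log2 difference in break ends, shHMGB1 minus shCTRL, with its 95% interval from edgeR over 16 libraries, for 45 of the ribosomal protein genes that were tested (left) and for 46 of the snoRNA genes inside members that were tested (right). Of the genes at left 37 lie below 0 and 1, Rpl27a, has an adjusted p under 0.05. Of the snoRNA genes shown 40 lie below 0 and none has an adjusted p under 0.05.

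The snoRNA genes inside members had a difference between the lines close to that of snoRNA genes elsewhere. The 57 genes together had 6283 ± 1933 CPM in shHMGB1 and 8497 ± 3390 in shCTRL (mean ± SD of 8 libraries each), a log2 difference of −0.41. The 1501 other snoRNA genes had 18796 ± 4864 and 25455 ± 9284, a log2 difference of −0.40. The members' share of all snoRNA ends was 24.8 ± 1.70% in shHMGB1 and 24.96 ± 1.49% in shCTRL. With snoRNA genes tested beside all other genes, 0 of the 50 tested inside members passed (0.184% of 13062 features did), 20 had an unadjusted p under 0.05, all lower in shHMGB1, against 9.71% of all features, 5.07% on the lower side. DESeq2 called 3 of the 50 and 39 of all 13062. The smallest adjusted p was that of Gm26448 in Rpsa (log2 −0.69 ± 0.17, adjusted p = 0.0544, edgeR), and Gm24888 in Rpl27a, whose sequence is shown above, followed (−0.62 ± 0.16, adjusted p = 0.0595).

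Away from snoRNA genes, no member differed past the test. In exons 10 members were tested and 0 called (0.0409% of 2447 genes were), with 1 at an unadjusted p under 0.05 (7.27% of all genes) and 0 by DESeq2. That 1 was Rpl41 (log2 −1.46 ± 0.63, adjusted p = 0.606, edgeR), with 5.39 ± 6.46 CPM per kb in shHMGB1 and 14.6 ± 11.0 in shCTRL. In introns without snoRNA genes 18 were tested and 0 called (0.128% of 10933 genes were), with 4 at an unadjusted p under 0.05 (8.85% of all genes) and 0 by DESeq2. The smallest adjusted p was that of Rpl11, which binds the 5S ribosomal RNA together with Rpl5 (−1.17 ± 0.40, adjusted p = 0.281, edgeR). The exons of 66 members held too few ends to be tested.

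Over the list, exon density was 2.24 ± 0.487 CPM per kb in shHMGB1 and 2.53 ± 0.640 in shCTRL (mean ± SD of 8 libraries each). From lowest to median to highest it was 1.23, 2.37 and 2.78 in shHMGB1, and 1.78, 2.42 and 3.57 in shCTRL. The log2 difference of −0.17 was under the SD between libraries of a group, 0.387. Intron density without snoRNA genes was 1.84 ± 0.433 in shHMGB1 and 2.09 ± 0.350 in shCTRL, a log2 difference of −0.21 beside an SD of 0.277. With snoRNA genes it was 31.2 ± 9.22 and 41.8 ± 15.9, a log2 difference of −0.40 beside an SD of 0.465. All 3 differences were within that SD, which describes single libraries and not means of 8, so this is no test of them. By dose from 0 to 10 Gy, the log2 difference in introns without snoRNA genes was 0.12, −0.54, −0.45 and 0.04, and that in exons 0.24, −0.66, −0.38 and 0.11. At 3 and 5 Gy shHMGB1 was thus the lower line by the mean of 2 libraries, and at 0 and 10 Gy the higher one. This order did not hold under each replicate number. In exons shHMGB1 was lower at 0 of 4 doses among libraries numbered 1 and at 3 of 4 among those numbered 2. In introns without snoRNA genes it was lower at 2 of 4 and at 4 of 4. Each library pools many cells, so fewer cells with an end and fewer ends per cell cannot be told apart.

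The difference between lines was larger among the libraries numbered 2 than among those numbered 1. In shCTRL the intron density was higher in replicate 2 than in replicate 1 at 4 of 4 doses, and in shHMGB1 it was lower at 4 of 4. The means of intron density for replicates 1 and 2 were 35.3 and 27.0 in shHMGB1, against 31.9 and 51.6 in shCTRL (n = 4 each). Among libraries numbered 1 the log2 difference was 0.14, and among those numbered 2 it was −0.94. In introns without snoRNA genes the differences were −0.0053 and −0.41, and in exons 0.22 and −0.57. For snoRNA genes inside members they were 0.15 and −0.97, and for other snoRNA genes 0.10 and −0.90. Rpl27a was lower in shHMGB1 at 4 of 4 doses under either number, by log2 differences of −0.30 and −1.07. Rpsa had −0.16 and −1.29 and Rpl7a −0.16 and −1.09, each lower at 2 of 4 doses among libraries numbered 1 and at 4 of 4 among those numbered 2. What the number stands for is not given in the labels, and its part in these differences was not tested.

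**Figure D5:**
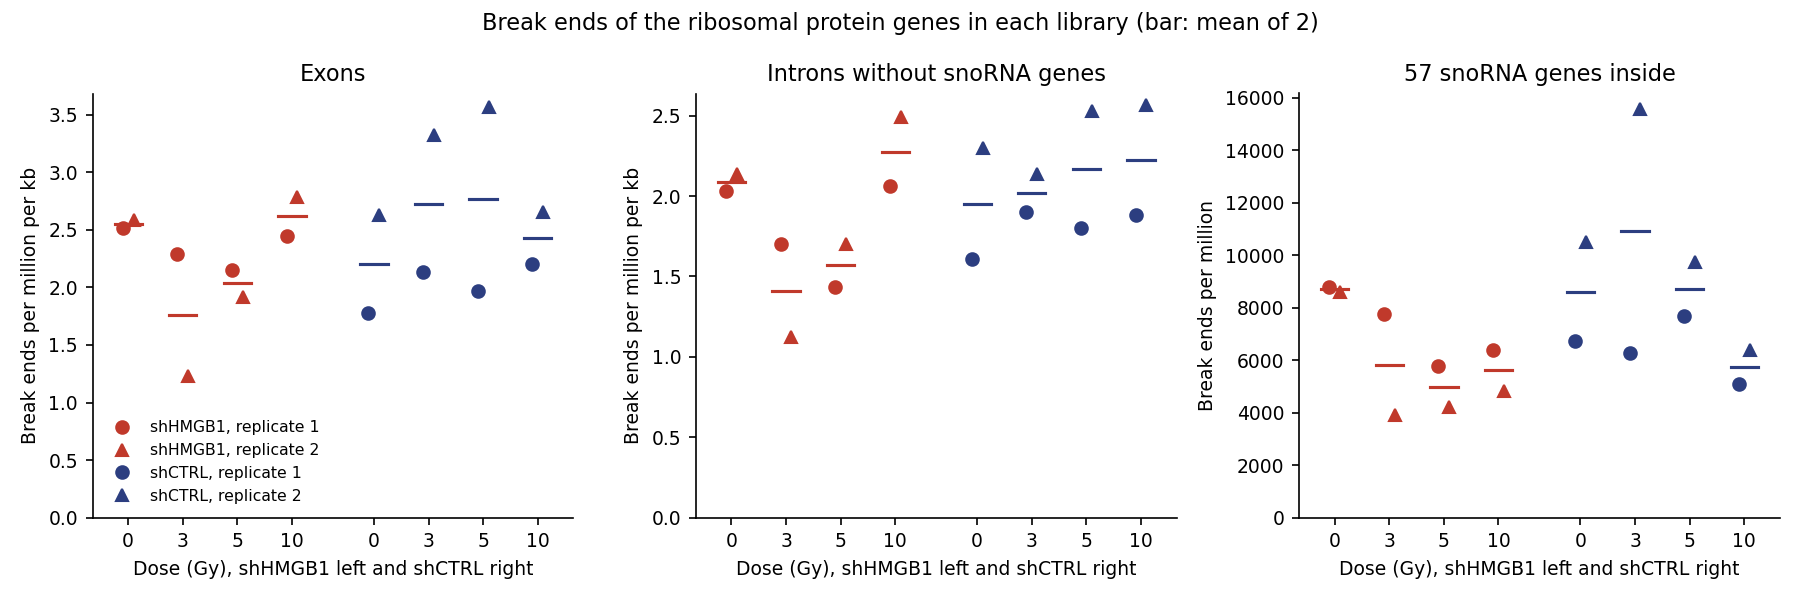
Break ends of the ribosomal protein genes in each library by dose in Gy, shHMGB1 at left and shCTRL at right of each panel, as density in exons, density in introns without snoRNA genes, and CPM in the 57 snoRNA genes inside them. Circles are replicate 1, triangles replicate 2 and bars the mean of both. In shCTRL the triangle lies above the circle at each dose in all 3 panels. The highest snoRNA value is shCTRL 3 Gy replicate 2, the smallest library, and the lowest is shHMGB1 3 Gy replicate 2.

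Of the pathway's other lists, 1 gene passed in the comparison of lines (0.218% of all 12848 genes tested did). This was Ncl, which encodes nucleolin and hosts snoRNA genes, lower in shHMGB1, 1 of 9 tested genes of the snoRNA-protein core and assembly list, whose median log2 difference was −0.36. The 13 tested genes with a pyrimidine tract had a median of −0.18 with 10 below 0, and the 23 tested mitochondrial ribosomal protein genes −0.02 with 12 below 0. The 2 tested ribosomal protein genes outside the rule had −0.12.

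The second comparison asks how irradiated cells differ from cells at 0 Gy. No member passed the test on whole-gene ends, with 0 of 46 called (0.0233% of 12848 genes were), 11 at an unadjusted p under 0.05, 10 of them lower after irradiation, and 0 by DESeq2. The median log2 difference was −0.20 over tested members and −0.01 over all genes, and 38 of 46 were below 0, against 51.2% of all genes. Of all genes 7.18% had an unadjusted p under 0.05, 4.29% on the lower side. The smallest adjusted p were those of Rpl5 (−0.60 ± 0.18, adjusted p = 0.370, edgeR) and Rpl41 (−1.66 ± 0.51, adjusted p = 0.402). In Rpl5 the snoRNA gene Snord21 had 478 ± 189 CPM in irradiated libraries (n = 12) and 738 ± 128 at 0 Gy (n = 4). Rps15a was the member with an unadjusted p under 0.05 that was higher after irradiation (1.13 ± 0.56, adjusted p = 0.693, edgeR).

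Of snoRNA genes inside members, 0 of 50 passed for irradiation (0.0153% of 13062 features did), with 12 at an unadjusted p under 0.05 and 0 by DESeq2. All 12 were lower after irradiation, against 7.04% of all features at that p, 4.23% on the lower side. A log2 difference below 0 was found in 47 of 50, against 51.4% of all features, and the median of the 50 was −0.33. The 57 together had 6968 ± 3169 CPM in irradiated libraries and 8656 ± 1546 at 0 Gy, a log2 difference of −0.40, and the 1501 others had −0.33. The smallest adjusted p was that of Gm22455 in Rpl4 (−0.87 ± 0.22, adjusted p = 0.170, edgeR). Snord83b, the snoRNA gene with the most ends, had 932 ± 198 CPM in irradiated libraries, from 620 to 1255, and 1332 ± 221 at 0 Gy, from 1101 to 1630. Its groups overlapped.

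Exon density was 2.39 ± 0.632 CPM per kb in irradiated libraries (n = 12) and 2.38 ± 0.400 at 0 Gy (n = 4), a log2 difference of −0.02. With 1 library left out this ran from −0.16 to 0.12, without shCTRL 0 Gy replicate 1 and replicate 2, and with the exons of all transcripts it was −0.43. Intron density without snoRNA genes was 1.94 ± 0.442 and 2.02 ± 0.295, a log2 difference of −0.08, which ran from −0.21 to 0.05 without the same libraries. Intron density with them was 34.5 ± 14.97 and 42.5 ± 7.48, a log2 difference of −0.38 beside an SD between libraries of 0.465. Across 10 members in exons and 18 in introns without snoRNA genes, 0 passed in either (0% of 2447 and 0.0366% of 10933 genes did), with 1 and 2 at an unadjusted p under 0.05 (6.62% and 7.13% of all genes) and 0 by DESeq2. The exon over intron ratio, snoRNA genes included, was higher after irradiation by 0.36 on the log2 scale beside an SD of 0.251, but with the exons of all transcripts it was −0.097. The snoRNA share of intron ends was lower by 1.35 percentage points.

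By dose, the shHMGB1 libraries had exon densities of 2.51 and 2.58 at 0 Gy, 2.29 and 1.23 at 3 Gy, 2.15 and 1.92 at 5 Gy, and 2.45 and 2.78 at 10 Gy. The shCTRL libraries had 1.78 and 2.63 at 0 Gy, 2.13 and 3.32 at 3 Gy, 1.97 and 3.57 at 5 Gy, and 2.21 and 2.66 at 10 Gy. Neither line changed with dose in one direction. The snoRNA genes inside members had 8781 and 8620 CPM at 0 Gy, 7754 and 3906 at 3 Gy, 5774 and 4205 at 5 Gy, and 6377 and 4851 at 10 Gy in shHMGB1. In shCTRL they had 6721 and 10501 at 0 Gy, 6273 and 15582 at 3 Gy, 7681 and 9728 at 5 Gy, and 5111 and 6378 at 10 Gy. Every irradiated shHMGB1 library lay below both at 0 Gy, while in shCTRL the groups overlapped. The 1501 other snoRNA genes had the same order, so it is not particular to those inside members. In shHMGB1 they had 23357 and 26576 CPM at 0 Gy and at most 22664 after irradiation, and in shCTRL their groups overlapped.

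The last comparison asks whether the lines differ in their response to irradiation. The log2 difference of irradiated from 0 Gy libraries in intron density was −0.68 in shHMGB1 and −0.08 in shCTRL. Without snoRNA genes it was −0.30 and 0.14, and in exons −0.30 and 0.25. In the test of this difference by gene, 0 of 46 members passed (0% of 12848 genes did), 6 had an unadjusted p under 0.05, all with the lower response in shHMGB1, against 5.25% of all genes, 2.7% on that side, and DESeq2 called 0. The median was −0.46 over tested members and −0.0056 over all genes, and the smallest adjusted p was 0.936 (edgeR). The share of library ends in members and the number of ends differ between libraries, and the smallest library, shCTRL 3 Gy replicate 2, held 42 exon ends of the whole list, so its values carry the most counting error.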

How the data were processed

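Break ends of 16 BLISS libraries were analysed. The authors deposited, for each library, clusters of ends with the position of each end and a count per cluster. These counts are raw and not normalised, and in each file the count equals the number of positions listed. The submitters' processing notes name Trimmomatic 0.32, UMI-tools, BWA 0.7.5-r404, SAMtools and bedtools and the build mm10, with no order or settings. How reads with several matches were placed is not given in the sources used here. Listed positions start from 0 and are given here from 1.

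Ends on the main chromosomes were placed on GENCODE M21 genes. Exons are the union over protein-coding transcripts, and introns are the rest of the span of those transcripts. Ends of a gene outside that span are in neither class. The snoRNA genes are the annotated snoRNA and scaRNA genes with 10 bases on either side. CPM was computed from the deposited counts as ends per 1000000 ends on the main chromosomes. Intervals and counts cover counting and library spread only, and the depth of 131430 to 1010888 ends sets their precision.

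The quasi-likelihood test of edgeR 4.0.16 in R 4.3.3 was applied to counts of 32093 protein-coding and long noncoding genes, with 8 group means, with TMM factors, filterByExpr and Benjamini-Hochberg adjustment over all features tested, and adjusted p under 0.05 was the threshold. The spread was estimated once over all 8 groups. The test was checked on simulated data, where it recovered 51% of 100 genes changed 2-fold and 97% of 100 changed 4-fold in whole-gene counts. It also called 13 unchanged genes there. Of 2-fold changes it recovered 33% in exons, 56% in introns without snoRNA genes and 46% with snoRNA genes tested beside all genes. These 3 fits had 5, 5 and 12 false calls. The simulated libraries were drawn independently, so the check did not cover shifts shared by libraries with the same replicate number. The members, lists and tests were chosen with earlier results of these data known. Named members are the 8 with the highest exon density, the 8 with the highest intron density without snoRNA genes, the 8 with the most snoRNA ends, the 3 with the lowest exon density among those with at least 500 exon bases, any past a test, and the 4 with the smallest p in each direction between the lines. Other genes were named after their values were seen. Alternatives were DESeq2 1.42.0, other scaling, filters, annotation rules, replicate blocks and each library left out. Python 3.11.15 with numpy 2.4.6, pandas 2.3.3 and matplotlib 3.10.9 did the rest. A few genes that enter the counts and totals are not reported here by name.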

Additional observations from a re-analysis of the deposited data

How the results depend on the processing

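Counts of members past the test stayed at 0 under every setting run for exons, for introns without snoRNA genes and for the difference in response between the lines. Further counts in this section are of members or their snoRNA genes alone. Calls over all features tested under each setting are not given beside them, so a higher count need not be particular to members. For whole-gene ends between the lines, 1 member passed as reported. The count was 3 by the DESeq2 test (Rpl27a, Rpl7a and Rpsa), 2 with DESeq2's size factors, and 4 with each position counted once or at most 3 ends per position (Rpl13a, Rpl27a, Rpl7a and Rpsa). It was 0 without TMM factors, without the filter, in a fit of 2 groups, after thinning to equal depth and with autosomes only. With 1 library left out it ran from 0 to 8, with 8 without shHMGB1 3 Gy replicate 1, 3 without shCTRL 3 Gy replicate 1, and 1, Rpsa, without shCTRL 0 Gy replicate 1 or shCTRL 10 Gy replicate 1. The log2 difference of Rpl27a stayed below 0 in all 27 settings, from −0.74 to −0.42, and passed in 8. Its adjusted p was 0.0525 without TMM factors, 0.192 without the filter, 0.0810 in a fit of 2 groups, 0.367 after thinning and 0.0512 with autosomes only (edgeR). Rpsa passed in 10 of the 27, Rpl7a in 7 and Rps3 in 2. Rpl34 turned its sign in 2 of the settings that leave out a library (from −0.44 without shHMGB1 3 Gy replicate 1 to 0.68 without shCTRL 10 Gy replicate 1). The median between the lines over tested members was −0.36 by DESeq2, −0.34 with its size factors, −0.41 without TMM factors and −0.24 without the filter, where the median of all genes was 0.16.

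For whole-gene ends after irradiation the count with 1 library left out ran from 0 to 2, with 2 without shHMGB1 3 Gy replicate 1. For snoRNA genes between the lines, 0 passed as reported and 3 by the DESeq2 test, with each position once and with at most 3 ends per position. With 1 library left out this ran from 0 to 7, with 7 without shHMGB1 3 Gy replicate 1, 5 without shCTRL 3 Gy replicate 1, and 1 without shCTRL 0 Gy replicate 1 or shCTRL 10 Gy replicate 1. After irradiation the snoRNA genes ran from 0 to 3, with 3 without shHMGB1 3 Gy replicate 1, 2 without shCTRL 0 Gy replicate 1 or shCTRL 3 Gy replicate 2, and 1 without shHMGB1 10 Gy replicate 1 or shCTRL 10 Gy replicate 2. A group left with 1 library was assumed to vary like the other groups. With the exons of all transcripts, the log2 difference after irradiation was −0.43 in exon density and −0.097 in the exon over intron ratio. The snoRNA share of intron ends differed between the lines by −4.40 percentage points with each position once and by −2.97 with at most 3 ends per position, and after irradiation by −3.40 with each position once. The cause of these shifts was not tested.

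For each gene, replicate 1 minus replicate 2 was taken in each group, and these differences were correlated across genes between groups. The correlations were all positive within a line and none passed 0.1. They were 0.0248 to 0.0613 within shHMGB1, 0.0456 to 0.0591 within shCTRL and −0.0914 to 0.0265 between the lines at a dose. By that limit the main fit took no pairing by number. Counting error in genes with few ends lowers such correlations, so they cannot decide whether the number is a pairing. The report gives intron ends that differ by number in one direction within each line, and a replicate block changed the counts of calls. With the replicate block the count of whole-gene calls between the lines was 3 (Rpl27a, Rpl7a and Rpsa), and with a block within each line 6 (Rpl23, Rpl23a, Rpl27a, Rpl7a, Rps3 and Rpsa). For snoRNA genes it was 2 and 9. After irradiation the block within each line gave 2 whole-gene calls, Rpl5 among them, and 3 snoRNA genes. The planned restriction to bases unique over 31 bases of genome was not run, since no genome sequence was used. Small libraries and short exons limit the depth, so that the exons of 66 members could not be tested.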
